A study of Mus musculus with 6 samples.

Results

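The genes described here are those that the array design still calls by the name of a RIKEN mouse cDNA clone beginning with 1700, such as 1700029M03Rik. All probes whose gene name is 1700, 3 digits, a letter, 2 digits and Rik were taken, and a gene was read from its probe of highest mean signal. There are 391 such genes, read by 465 probes, among 34844 gene or locus names on the array. RNA was measured in single whole testes of C57BL/6 male mice at 5 months of age. In one group, labelled AROM+, 3 mice were transgenic for over-expressed aromatase. This enzyme makes oestrogens from androgens. The other group was 3 wild-type mice (WT). The labels used here name neither the promoter of the transgene nor the species of its sequence, and they state that each array holds 1 testis.

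The RIKEN clones come from full-length cDNA libraries, and the 1700 plates were filled from adult mouse testis. Among tested genes whose probe description names a cDNA library, 90.7% (97 genes) name adult male testis. Many such clones are transcripts of meiotic cells and of spermatids, the haploid cells that build the sperm head and flagellum. Germ cells at these stages transcribe a very broad set of loci, among them many long noncoding RNAs (lncRNAs), so a testis library yields transcripts without a known product. In mice, sperm formation depends on androgen action in Sertoli cells, and excess oestrogen is known to disturb it.

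The probes of the largest rise and of 3 large falls among genes measured on all 6 arrays are shown first, since these sequences are what the values below measure. Each is given 5′ to 3′ with its mm9 position, in lower case throughout. Their exon or intron position was not assigned, because no mm9 gene annotation was used here. The gene 1700016F12Rik had no match in RefSeq, and RefSeq classes the other 3 as lncRNA.
1700029M03Rik, chr1:166891474-166891533, plus strand: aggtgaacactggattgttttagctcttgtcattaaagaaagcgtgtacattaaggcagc
1700081H04Rik, chr5:119564493-119564552, plus strand: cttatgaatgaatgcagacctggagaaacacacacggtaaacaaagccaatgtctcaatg
1700063H04Rik, chr6:122342560-122342619, plus strand: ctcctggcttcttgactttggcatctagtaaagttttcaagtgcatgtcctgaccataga
1700016F12Rik, chr5:97281886-97281945, plus strand: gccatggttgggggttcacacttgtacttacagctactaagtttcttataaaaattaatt

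Of the 391 genes, 371 had a probe that passed the scanner's background test (well above background) on every array of WT, of AROM+ or of both, and these were tested. Of these, 366 were well above background on all 6 arrays, and none was detected in one group alone. The probes of the 20 untested genes included 18 that were above background on no array. Levels are log2 intensities relative to the 75th percentile of the array, so 0 is the 75th percentile. In WT testes the tested genes ranged from −6.41 to 4.52 with a median of 1.67, against a median of −1.11 over all 28916 features tested, and 72.0% of them exceeded 0, against 38.1% of all features.

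Most of these clone genes were lower in AROM+ testes. With limma and Benjamini-Hochberg adjustment over all 28916 features, 276 of the 371 (74.4%) fell and 3 rose at an adjusted p under 0.05, while 92 did not pass. Over all features the same rule called 31.4% lower and 14.5% higher, 45.9% in either direction. The median log2 difference, AROM+ minus WT, was −0.46 for the clone genes and −0.19 for all features, and the clone genes' quartiles were −0.61 and −0.33. The median gene therefore read 72.6% of its WT level. The falls were numerous and small: 7 genes were called and at least 2-fold lower, and 1 was called and at least 2-fold higher, where 1.37% and 5.01% of all features met these rules. The 7 include 1700012I11Rik and 1700069P05Rik, which were not well above background on every AROM+ array and passed the filter through WT alone. With quantile normalization, which moved the median of all features to −0.09, 156 clone genes fell and 3 rose (all features 21.4% lower and 16.2% higher). Without WT replicate 3 the lower count was 181, where 17.2% of all features fell. In whole-testis RNA, fewer cells of a type and less RNA per cell cannot be told apart.

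**Figure D1:**
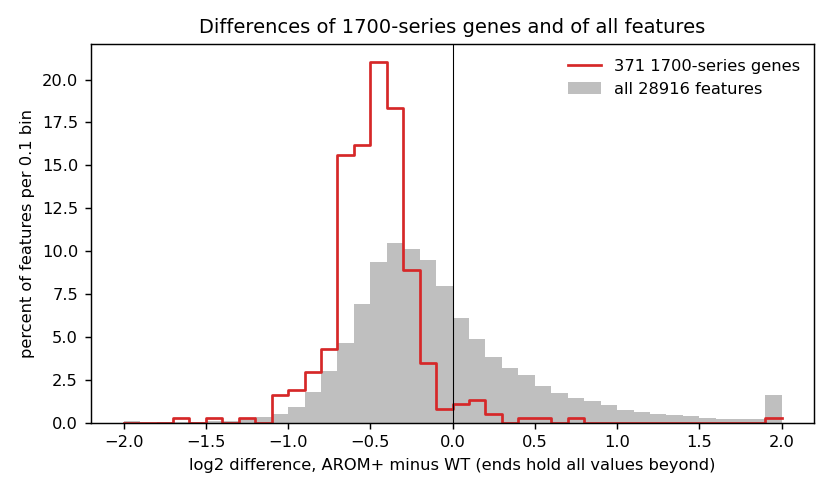
Distribution of log2 differences (AROM+ minus WT, bins of 0.1) for the 371 tested clone genes (red line) and all 28916 features (grey bars), each as a percent of its set. The clone genes centre on a median of −0.46, and 356 of them (96.0%) lie below 0, against 66.2% of all features. The grey distribution centres on −0.19 and has a long right tail.

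The individual testes gave the same picture. The median level of the 371 genes was 1.70, 1.56 and 1.77 in WT replicates 1 to 3, and 1.14, 1.27 and 1.14 in AROM+ replicates 1 to 3. Each AROM+ median lay below the lowest WT median. The median level over all features stayed between −1.12 and −1.06 on every array, but single features did shift. Taken feature by feature against the WT mean, the median difference of all features was −0.25, −0.17 and −0.12 in AROM+ replicates 1 to 3. For the 371 genes it was −0.51, −0.40 and −0.47, so part of their shift was shared by all features. In AROM+ replicate 1, 355 of the 371 genes read below their lowest WT value, and in replicates 2 and 3 these counts were 333 and 337. All features were not counted in this way, but 66.2% of them had a difference below 0. For 321 genes (86.5%) the groups did not overlap, against 59.0% of all features. The median spread of a gene between testes of one group was 0.10 in WT and 0.12 in AROM+ (SD, n = 3).

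Among genes measured on all arrays, the largest fall was that of 1700029M03Rik, an lncRNA on chromosome 1. It read 0.65, 0.54 and 0.90 in the WT testes and −0.74, −0.93 and −1.27 in the AROM+ testes. Every AROM+ value was below 0 and every WT value above it. The difference was −1.67 ± 0.16 (SE; limma, adjusted p = 0.00284), which left 31.3% of the WT level. The lncRNA 1700081H04Rik of chromosome 5 was dimmer, at −0.71, −0.78 and −0.57 in WT and −1.71, −1.71 and −1.91 in AROM+. The replicates of each group lay close together, and the gene fell by 1.09 ± 0.11 (SE; limma, adjusted p = 0.00275).

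The lncRNA 1700063H04Rik read 1.92, 1.44 and 2.17 in WT and 1.14, 0.72 and 0.41 in AROM+. Each group spread over more than those of 1700081H04Rik but they did not overlap, and the difference was −1.09 ± 0.24 (SE; limma, adjusted p = 0.0135). The array carries 3 further probes of the same strand, named by locus and not by gene, which start 26, 86 and 153 bases away. They fell by 1.00, 1.09 and 1.16. The 4 probes lie on 1 short stretch and are not independent.

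Prss56, the current name of 1700027L20Rik, encodes a serine protease known for its part in the growth of the eye. The WT testes read 0.99, 0.81 and 0.77, and the AROM+ testes −0.03, −0.17 and −1.11. One AROM+ testis read well below the others, and the difference of −1.29 carried a wide error of 0.28 (SE; limma, adjusted p = 0.0118). It was the only protein-coding clone gene that was called and at least 2-fold lower.

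Other large falls measured on all arrays were again of lncRNAs. The difference was −1.07 for 1700092E19Rik, −0.98 for 1700020D12Rik, −0.96 for 1700041B01Rik and −0.93 for 1700066O22Rik. The call of 1700020D12Rik was lost without WT replicate 3 (adjusted p = 0.0504, limma). The lncRNA 1700016A09Rik fell by less, with little spread between replicates: 1.98, 1.85 and 1.87 in WT and 1.01, 1.02 and 0.94 in AROM+, a difference of −0.91 ± 0.09 (SE; limma, adjusted p = 0.00258). The lncRNAs 1700012I11Rik and 1700069P05Rik differed by −1.48 and −1.04 and were called, but both were near background and well above it on 3 WT and only 2 AROM+ arrays. The coding gene 1700014D04Rik differed by −1.09 and was not called (limma, adjusted p = 0.0593): AROM+ replicate 3 read −1.19 while the other AROM+ testes read 0.26 and 0.36.

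The largest rise was that of a transcript without a RefSeq record. The transcript 1700016F12Rik read −2.90, −2.89 and −2.55 in WT and −0.94, −0.75 and −0.86 in AROM+. Each AROM+ testis was far above all WT testes, and the rise of 1.93 ± 0.12 (SE; limma, adjusted p = 0.00141) is 3.81-fold. A probe of Anxa3, which encodes a calcium-dependent membrane-binding annexin, lies 27961 bases away on the same strand and rose by 1.55 ± 0.27 (SE; limma, adjusted p = 0.0072). Whether both probes read 1 transcript was not tested.

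Lrmda, listed as 1700112E06Rik and known for its role in melanocyte differentiation, was the dimmest of the 3. It read −5.78, −5.80 and −5.77 in WT and −4.88, −5.08 and −5.07 in AROM+, a rise of 0.77 ± 0.09 (SE; limma, adjusted p = 0.00365). The rise was smaller, 0.34, under normexp background correction, and was still called (limma, adjusted p = 0.0173). The lncRNA 1700096K18Rik rose by 0.46 ± 0.10 (SE; limma, adjusted p = 0.0121), from −2.51, −2.50 and −2.42 to −1.88, −2.02 and −2.14. Its call was lost with spike-in scaling (limma, adjusted p = 0.0987). All 3 rises were of genes in the dim tertile of the set.

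**Figure D2:**
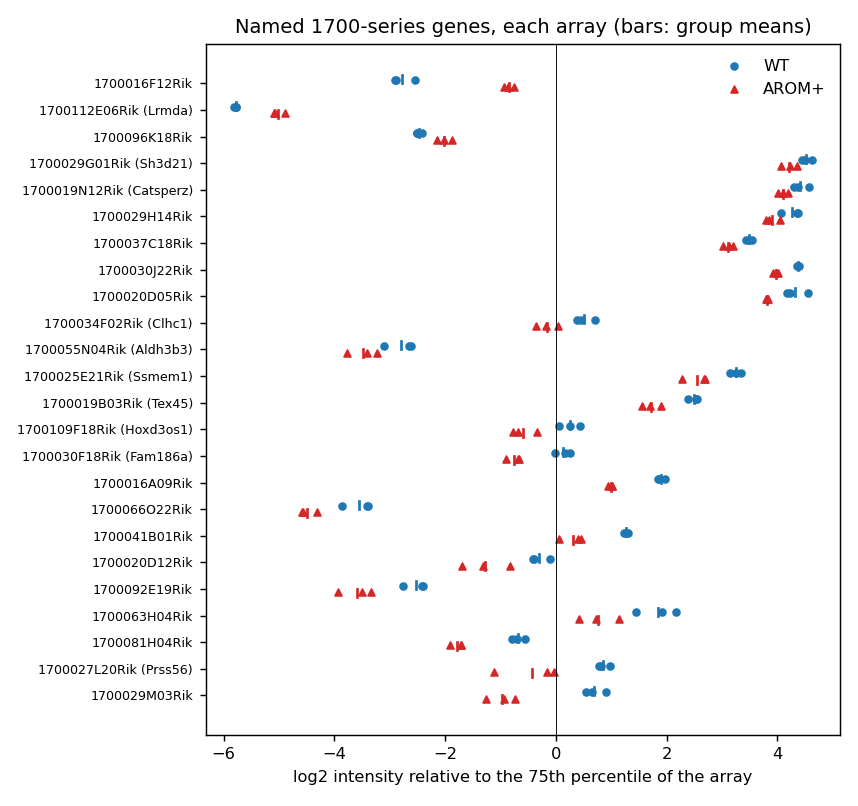
Level (log2 intensity, with 0 at the 75th percentile of each array) of 24 clone genes, 1 point per testis (blue circles WT, red triangles AROM+, 3 each), with short bars at the group means and genes ordered by difference. In the bottom row 1700029M03Rik falls from above 0 to below it, in the top row 1700016F12Rik rises by 1.93, and the brightest genes near 4 move by 0.51 or less.

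Many clones have since been given names, and these let the set be read by role. Of the 371 tested genes, 324 matched a RefSeq record, which in each case also lists the clone name, and 99 now carry another symbol. The groups below were formed from these symbols after their values had been seen. Beside their counts, 31.4% of all features fell, and 42.5% of those with levels of the bright tertile of the set. With quantile normalization 21.4% of all features fell, and with spike-in scaling 15.1%. The Cfap genes encode proteins of cilia and flagella. All 7 of them fell (Cfap77, Cfap97d1, Cfap126, Cfap157, Cfap161, Cfap206 and Cfap299), with a median difference of −0.52. The widest was that of Cfap161, at −0.60 ± 0.09 (SE; limma, adjusted p = 0.00473). With quantile normalization their median was −0.30 and 3 of the 7 were called, as were 3 with spike-in scaling. Pifo and Ift43, which belong to cilium assembly and intraflagellar transport, fell by 0.53 and 0.40. Ift43 lost its call with both of these scalings.

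The histone variants of the testis replace canonical histones as the haploid genome is packed. All 4 on the list fell, by 0.67 (H2ap), 0.62 (H2bl1), 0.47 (H2bfm) and 0.44 (H2al1m). H2ap and H2bl1 kept their calls in all 19 alternative settings, while H2bfm lost its call in 7 and H2al1m in 3. Of the genes named for spermatogenesis or the acrosome, Spata25, Spata45, Spata46, Spatc1l and Spaca9, all 5 fell, with a median of −0.32. Only 1 of the 5 was called with quantile normalization (median −0.10), with spike-in scaling, with the replicate block, and without WT replicate 1, without WT replicate 3 or without AROM+ replicate 1. Of 9 Tex genes, named only for expression in testis, 7 fell, a count that was 2 with quantile normalization and 3 with spike-in scaling. Tex45 fell furthest, from 2.53, 2.55 and 2.39 to 1.90, 1.70 and 1.55, a difference of −0.78 ± 0.12 (SE; limma, adjusted p = 0.00516). Tex29 (−0.53) and Tex33 (−0.28) did not pass the test.

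Other clones are genes of sperm function. Catsperz, a subunit of the calcium channel of the sperm tail, read 4.41 ± 0.14 in WT and 4.09 ± 0.09 in AROM+ (SD, n = 3). The groups did not overlap, but the fall of 0.32 ± 0.11 barely passed (SE; limma, adjusted p = 0.0484) and was lost in 12 of 19 alternative settings. Tsacc, a co-chaperone that activates a testis-specific kinase, fell by 0.29, and Llcfc1, needed for fusion of sperm and egg, by 0.32. Their calls were lost in 8 and 7 of the 19 settings. Ssmem1, a single-pass membrane protein, fell further, from 3.26, 3.14 and 3.34 to 2.70, 2.67 and 2.27 (−0.70 ± 0.14, SE; limma, adjusted p = 0.00962).

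Other named genes with large falls were Fam186a (−0.88 ± 0.12), the clathrin linker gene Clhc1 (−0.68 ± 0.14) and the aldehyde dehydrogenase Aldh3b3 (−0.69 ± 0.19, SE). The call of Aldh3b3 was lost with spike-in scaling and in 3 of the fits that left out a testis (−0.62 without WT replicate 1, −0.60 without WT replicate 3, −0.54 without AROM+ replicate 2). In the family groups all 7 Fam genes, 5 of 6 Ccdc genes and both Ms4a genes fell, where 31.4% of all features did. With quantile normalization and with spike-in scaling 2 Fam, 2 Ccdc and 1 Ms4a genes were called. Without WT replicate 1 these counts were 3, 3 and 1, where 18.9% of all features fell. None of these families had a member that rose.

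Some named genes differed little between the groups by their brightest probe. Syce3, a part of the synaptonemal complex that joins homologous chromosomes in meiosis, read 3.54 ± 0.05 in WT and 3.38 ± 0.15 in AROM+ (SD, n = 3) and was not called (−0.16; limma, adjusted p = 0.246). Majin, which tethers meiotic telomeres to the nuclear envelope, was not called by its brightest probe either (−0.23). Its other probe fell by 0.59 (limma on all probes, adjusted p = 0.00855), so the probes of Majin disagree. Among clones that now belong to genes active in many tissues, Kansl1 (−0.04), Gpatch2l (−0.10) and Ccsap (0.04) were not called. Of the 92 genes that did not pass, 80 had a difference below 0, and the groups of 43 did not overlap. Over all features, called or not, 66.2% had a difference below 0, and the groups of 59.0% did not overlap. The coding gene 1700025G04Rik had the largest uncalled positive difference (0.55; limma, adjusted p = 0.0583).

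The 5 clone genes of highest mean level lay more than 4 log2 units above the 75th percentile in WT and were all protein coding. Their differences were modest. The gene 1700030J22Rik, at 4.38, 4.39 and 4.34 in WT and 3.92, 4.01 and 3.98 in AROM+, had closely matching replicates and fell by 0.40 ± 0.08 (SE; limma, adjusted p = 0.0101). The gene 1700020D05Rik fell by 0.51, and both lost their call with quantile normalization (−0.17 and −0.26) and with spike-in scaling. The falls of 1700029H14Rik (−0.37) and the uncalled difference of Sh3d21 (−0.31; limma, adjusted p = 0.0521) lay close to the threshold, and these calls changed in 10 and 6 of the 19 settings. With quantile normalization they read −0.13 and −0.08, and Catsperz read −0.07.

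**Figure D3:**
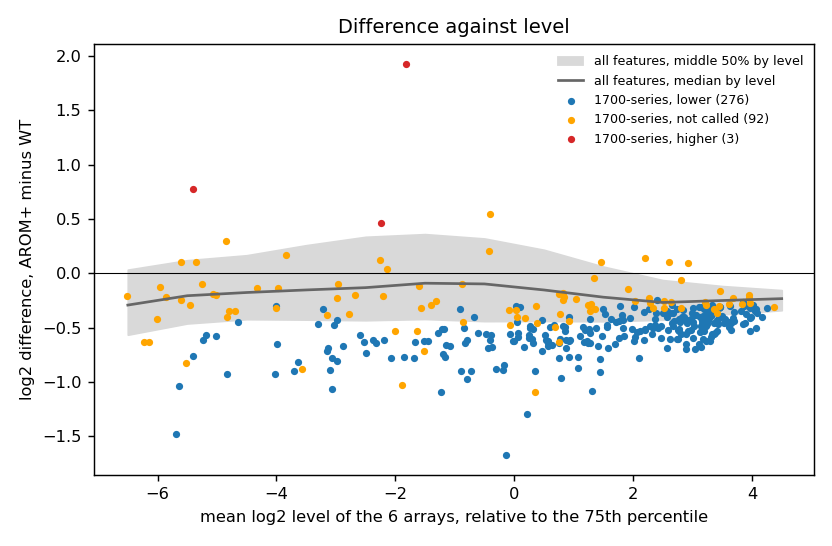
Log2 difference (AROM+ minus WT) against the mean log2 level of the 6 arrays for each tested clone gene (blue lower, orange not called, red higher), over the median and middle 50% of all features in level bins of 1 log2 unit (grey). Most clone genes lie below the grey median at every level, and the 3 red points lie left of −1.8.

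The share that fell varied with level and class. In the bright tertile of the set 108 of 124 fell (87.1%) and none rose, where 42.5% of all features of like level fell and 1.98% rose. In the middle tertile 95 of 123 fell (77.2%), beside 39.2% lower and 12.4% higher of all features of like level. In the dim tertile 73 of 124 fell (58.9%) and 3 rose, beside 26.6% and 17.3%. The median difference was −0.41, −0.50 and −0.55 from bright to dim. With quantile normalization 27 bright (21.8%), 60 middle and 69 dim genes fell, so the order of the shares turned. In that setting 21.4% of all features of any level fell, close to the share of the bright genes. With spike-in scaling the counts were 38, 52 and 53, where 15.1% of all features fell. Without WT replicate 1 the counts were 66, 63 and 55, and without WT replicate 3 they were 72, 55 and 54. In these 2 fits 18.9% and 17.2% of all features fell. Of the 171 protein-coding genes, 140 fell and 1 rose (median −0.44), beside 30.1% and 19.9% of all protein-coding features. Of the 139 lncRNAs, 96 fell and 1 rose (median −0.51), beside 46.5% and 6.98% of all lncRNA features. Of the 47 genes without a RefSeq match, 32 fell and 1 rose (median −0.51), beside 31.8% and 5.97% of all such features. With quantile normalization the lower counts of the coding, lncRNA and unmatched genes were 56, 72 and 25, and with spike-in scaling 63, 59 and 18. Without WT replicate 1 they were 88, 66 and 24, and without WT replicate 3 they were 93, 62 and 22. On chromosome X, which is silenced during male meiosis, 13 of 20 fell and none rose, beside 22.8% lower and 21.9% higher of all features of that chromosome. The count on chromosome X was 7 with quantile normalization, 6 without WT replicate 1, 6 without WT replicate 3 and 8 without AROM+ replicate 1. Differences between these classes were not tested.

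**Figure D4:**
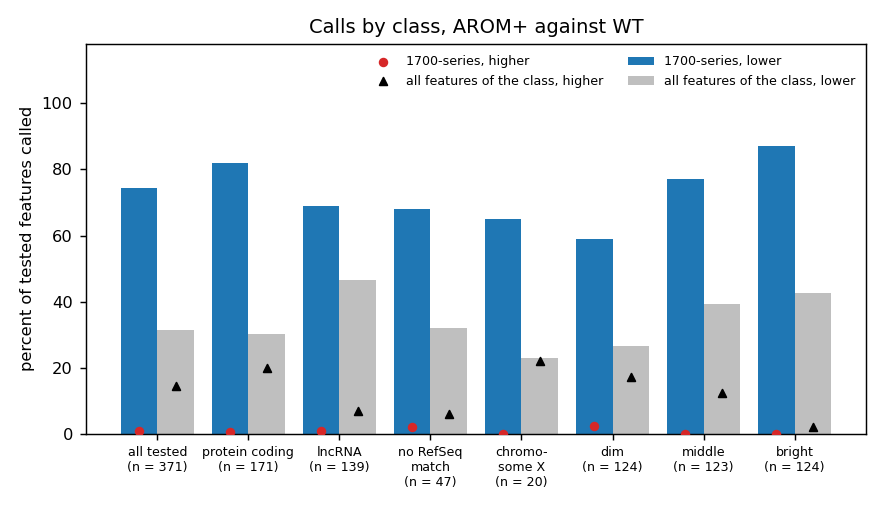
Percent of tested features called lower (bars) and higher (points) for the clone genes (blue, red; n under each label) and for all features of the same class or level range (grey, black). In each of the 8 groups the blue bar is above the grey bar. The blue bars run from 58.9% in the dim tertile (grey 26.6%) to 87.1% in the bright tertile (grey 42.5%). This order turns with quantile normalization (55.6% and 21.8%), where 21.4% of all features were called lower.

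Beside the 1700 clones, a second RIKEN testis series, whose clone numbers begin with 49, was read in the same fit: of 662 tested, 458 fell and 15 rose, with a median of −0.52. Its lower count was 277 without WT replicate 3 and 287 with spike-in scaling, where 17.2% and 15.1% of all features fell. Clones whose names begin with a letter come from many tissues, and of 455 tested, 124 fell and 75 rose, with a median of −0.16. Their lower count was 68 without WT replicate 3, 77 without WT replicate 1 and 56 with spike-in scaling. In these settings 17.2%, 18.9% and 15.1% of all features fell. By share, 69.2% of the 49 series fell and 2.27% rose, and 27.3% of the letter-named clones fell and 16.5% rose. Over all features these shares were 31.4% and 14.5%. The sets were not tested against each other.

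Several genes are read by more than 1 probe. Of 60 genes with several tested probes, all probes fell for 31, and for 24 more some fell and none rose. Among all 440 tested probes of the clone genes 321 fell and 4 rose, and 31.4% of all features fell. Such counts were not made for the other genes of the array with several probes. No probe was called for 4 genes. In 1 gene, 1700037C18Rik, the calls were opposite: probes gave −0.72, −0.37, −0.23 (not called) and 0.68 (limma on all probes), so no direction is given for this gene. The median gap between probes of a gene was 0.144.

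Hoxd3os1, the lncRNA 1700109F18Rik, runs antisense within the HoxD cluster and its probes also disagree. Both probe sequences are shown because they lie on the same strand of chromosome 2 in mm9 and give different results.
1700109F18Rik probe A_51_P300921, chr2:74551381-74551440, minus strand: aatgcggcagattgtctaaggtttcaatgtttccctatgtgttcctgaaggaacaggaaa
1700109F18Rik probe A_51_P269053, chr2:74548166-74548225, minus strand: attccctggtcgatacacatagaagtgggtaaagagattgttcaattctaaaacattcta
The first, the brighter probe, read 0.25, 0.05 and 0.43 in WT and −0.68, −0.34 and −0.77 in AROM+, a fall of 0.84 ± 0.15 (SE; limma, adjusted p = 0.00764). The second was not called (0.29 ± 0.24, SE; limma, adjusted p = 0.36), and with the mean of both probes the gene was not called (−0.28). Hoxd3, a homeobox transcription factor gene on the other strand, rose by 0.55. The other antisense clones went with their partners in sign: Rab10os −0.62 and the vesicle GTPase gene Rab10 −0.34, Kcnmb4os1 −0.41 and the potassium channel subunit gene Kcnmb4 −0.58, Oip5os1 −0.29 (not called) and Oip5 −0.40. The call of Rab10 was lost in 8 of the 19 settings, and with the mean of its probes its difference was −0.02.

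Marker genes of the cell types of the testis moved in both directions on the same arrays. Of the tested markers, 8 of 10 spermatocyte, 10 of 11 round spermatid, 7 of 10 elongating spermatid and 9 of 10 axoneme genes fell and none rose, with medians between −0.44 and −0.41. In the same order the lower counts were 3, 4, 1 and 4 with quantile normalization, 2, 4, 1 and 4 with spike-in scaling, and 3, 6, 5 and 5 without WT replicate 1. Without WT replicate 3 they were 4, 5, 4 and 8. The median of 10 spermatogonial markers was 0.01 (1 rose, 1 fell), and its sign changed between settings. Of 9 macrophage markers 8 rose (median 2.31). Among the 8, Gpnmb (9.50) was well above background on 3 AROM+ and 0 WT arrays, so it passed the filter through AROM+ alone. With features well above background on all arrays, 7 of 8 rose (median 2.04). The probes of the remaining macrophage marker, Csf1r, disagreed: its brightest probe gave −0.44 and the mean of its probes 1.05, so no direction is given for it. Rises were also called for 4 of 10 Sertoli, 4 of 7 Leydig, 5 of 6 endothelial and 4 of 7 peritubular and matrix genes, where 14.5% of all features rose. The other 3 Leydig markers, Hsd17b3 (−1.08), Cyp17a1 (−0.42) and Star (−0.40), had differences below 0 and were not called. The endothelial marker Kdr read −0.39 by its brightest probe and 0.23 by the mean of its probes, and is given no direction either. Adgre1 (macrophages) and Insl3 (Leydig cells) were not tested. The log2 of the summed macrophage marker intensities, Gpnmb included, ranged from 3.56 to 4.03 in WT and from 4.99 to 5.71 in AROM+. For round spermatids it ranged from 6.85 to 6.90 and from 6.39 to 6.52. The part of these shifts in the falls of the clone genes was not tested. Cyp19a1, the endogenous aromatase gene, was not called (−0.30 ± 0.18, SE; limma, adjusted p = 0.217), and whether its probe reads the transgene is not known.

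Promoters were searched for short motifs that are known from spermatid and ciliary genes and for the oestrogen response element. RefSeq (GRCm38.p6) gave 308 promoter windows for 259 of the tested genes, each of 300 bases from 250 before the start to 50 after it. The half-site of RFX factors, which act on ciliary genes (GTTGCC, or GGCAAC on the other strand), was in 21.1% of these windows, in 23.1% of the 238 windows of genes that fell, in 14.7% of those of genes not called, and in 12.5% of all 32851 windows. The gene of one such factor, Rfx2, fell by 0.66 and is itself among the axoneme markers above. Any link between its level and these shares was not tested. The MYB core AACNG, which can share bases with the RFX half-site, was in 84.1% of the genes' windows and 80.3% of all. It was in 87.4% of the windows of genes that fell and in 72.1% of those of genes not called. The cAMP response element TGACGTCA was in 1.30% against 1.79%, and its core TGACG, which lies inside it, in 21.1% against 20.8%. The TATA box TATAAA was in 9.09% against 13.6%. For genes that fell and genes not called, the shares were 1.26% and 1.47% for the cAMP response element and 21.8% and 19.1% for its core. For the TATA box they were 7.98% and 13.2%. Both strands were searched, and these shares were not tested.

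The next stretches, upstream of the start and 5′ to 3′ on the strand of the gene, show the first RFX half-site of 4 genes that fell, chosen for their names after their values were seen, with the match in capitals and GRCm38.p6 positions. Cfap161 and Pifo belong to the cilium group above.
Cfap161, chr7:83794860-83794945, minus strand: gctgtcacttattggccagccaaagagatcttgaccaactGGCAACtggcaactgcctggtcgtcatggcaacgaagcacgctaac
Pifo, chr3:106001498-106001549, minus strand: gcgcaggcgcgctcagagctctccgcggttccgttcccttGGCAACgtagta
Lrrc72, chr12:36253399-36253462, minus strand: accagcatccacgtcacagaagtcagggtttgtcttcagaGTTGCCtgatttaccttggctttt
Ssmem1, chr6:30512226-30512285, plus strand: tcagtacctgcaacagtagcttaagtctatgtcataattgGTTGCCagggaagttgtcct
The capitals begin 66 bases before the start in Cfap161, 24 in Lrrc72, 20 in Ssmem1 and 12 in Pifo. Lrrc72, a leucine-rich repeat gene, fell by 0.61, and the values of the others are given above.

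The oestrogen response element, the palindrome of GGTCA and TGACC with 3 free bases between them that oestrogen receptors bind, was in 1 of the 308 windows and in 23 of all 32851 (0.0700%). That window belongs to Tex45, whose element is in capitals (GRCm38.p6).
Tex45, chr8:3470756-3470848, plus strand: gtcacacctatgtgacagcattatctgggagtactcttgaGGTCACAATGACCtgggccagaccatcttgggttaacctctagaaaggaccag
It begins 66 bases before the start. A match is a run of letters and was not tested as a binding site.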

How the data were processed

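Total RNA of 6 testes was read on 6 one-colour Agilent arrays of 1 slide, WT in one row of it and AROM+ in another, so the effect of position and that of genotype cannot be told apart. The deposited spot intensities are background-corrected processed signals, per the file headers (Feature Extraction 10.7.3.1; 10.10 per the submitters' processing notes). The authors also deposited a log2 table, whose columns matched log2 of the processed signal minus a constant per array (slope 1.00, column medians of non-control probes −3.12 to −3.02, genes not centred); it was used as an alternative.

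Of 62976 spots per array, 3671 control spots and 123 to 192 flagged spots were left out, and none was saturated. Between 76.6% and 80.6% of probes were above background, and the number of arrays limits the precision. Log2 processed signal was centred on each array's 75th percentile, a feature was its brightest probe, and features well above background on all 3 arrays of a group were tested with limma 3.58.1 in R 4.3.3 (lmFit, eBayes) and Benjamini-Hochberg adjustment over 28916 features. Labels give 1 testis per array, and p-values measure the spread between these testes. Replicate numbers did not pair the samples (correlations of same-numbered deviations 0.05, −0.17 and 0.05).

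Tested clone genes were named through RefSeq (GRCm38.p6, names, classes and promoters only): 211 by accession, 104 by symbol, 9 by synonym and 47 not. Probe coordinates are mm9. The members and lists were chosen with earlier results of these data known. Named genes were the called members of largest rise or fall, the 5 brightest, the 5 of smallest adjusted p, called members of largest change with a current symbol, and members with opposite probes. The fit was tested on simulated data. Alternatives were normexp (offset 50), quantile normalization, centring on bright probes, the deposited table, other filters, probe means, a replicate block, eBayes trend, array weights and the omission of single arrays. Those chosen after seeing the data were RefSeq-matched features only, centring on the feature median and spike-in scaling.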

Additional observations from a re-analysis of the deposited data

How the results depend on the processing

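The median difference of the clone genes was below 0, and their lower count above their higher count, under all 19 alternatives. None of the 276 genes that fell changed sign where tested. Quantile normalization gave 156 lower clone genes and a median of −0.30. Spike-in scaling gave 143 lower clone genes and 4374 lower features in all. Without the filter on dim probes 5 clone genes rose. The cause of these shifts was not tested. Leaving out 1 array gave 181 to 256 lower and 3 to 5 higher clone genes, medians of −0.50 to −0.43, and over all features 4967 to 8005 lower and 2752 to 3964 higher. The lowest counts were those without WT replicate 3, and without WT replicate 1 there were 184 lower clone genes and 5458 lower features. With the replicate number as a block, which does not pair the samples here, 217 clone genes fell and 3 rose. The clone genes' median stayed below that of all features by 0.21 or more in each setting. Of the 24 named genes, 14 kept their call under all alternatives that tested them. Dim probes near background are limited by signal.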
